A study of Homo sapiens with 6 samples.

Results

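A set of 33 genes of fatty acid oxidation was examined in CAOV2 cells, a human ovarian cancer cell line, after treatment with an siRNA reagent against YAP. The genes were given as a list of enzymes and transporters of mitochondrial and peroxisomal beta-oxidation, and each was matched by its Ensembl identifier to a row of the deposited table, which holds 17211 genes. All 33 were found, and all 33 passed the filter on low values. By the usual location of the encoded protein, 19 are mitochondrial (CPT1A, CPT2, ACADM, ACADS, ACADSB, ACADVL, ACAD9, HADH, HADHA, HADHB, ECHS1, ETFA, ETFB, ETFDH, ECI1, ACAA2, ACAT1, DECR1 and HSD17B10) and 11 are peroxisomal (ACAA1, DECR2, ACOX2, ACOX3, EHHADH, HSD17B4, SCP2, PHYH, HACL1, ABCD3 and CROT). The other 3 (ECI2, AMACR and CRAT) encode proteins found in both organelles and were kept apart.

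The 2 groups were cells given 100 pmol of a non-targeting siRNA (siNT, 3 libraries) and cells given 100 pmol of an siRNA reagent against YAP (siYAP, 3 libraries), both with 6 µL of a lipid transfection reagent. Transfection lasted 2 days and cells were taken at day 3. YAP is a transcriptional co-activator restrained by the Hippo kinases, and the contrast asks which transcripts differ when its gene is silenced. A single cell line was used, the labels call it both a line and primary cells, and the targeting and control reagents had different suppliers, so loss of YAP cannot be told apart from whatever else the reagents did.

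Beta-oxidation shortens fatty acyl-CoA from its carboxyl end by repeated rounds of dehydrogenation, hydration, a further dehydrogenation and thiolytic cleavage, and it does so with separate sets of enzymes in mitochondria and in peroxisomes. Mitochondria take up common long-chain fatty acids as carnitine esters and pass the electrons to the respiratory chain. Peroxisomes handle very long and branched chains, begin with oxidases that make hydrogen peroxide, and export the shortened products, partly as carnitine esters, for completion in mitochondria. In liver and other tissues many of these genes respond to the fatty acid-activated receptor PPARA.

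Each value is a gene's read count over the size factor of its library, called a normalized count below. The whole reads behind them summed to between 25478595 and 31790340 per library. The siNT libraries held 6221, 5801 and 5955 normalized counts of YAP1 and those of siYAP 278, 327 and 294, or 5% of the control level. Nothing in the labels says that the replicates came from separate cultures or days, and the p-values therefore measure only the spread between these libraries. In bulk RNA, a change in a transcript per cell and a change in the share of cells that make it cannot be told apart.

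Most of the 33 genes were higher in siYAP, and the called falls were few and all mitochondrial. At an adjusted p under 0.05 (limma on log2(value + 1), adjusted by Benjamini-Hochberg over the 17200 genes tested), 19 of the 33 rose, 3 fell and 11 were not called. The added 1 makes fitted fold changes of low-count genes smaller than the ratios of their means. Over all tested genes, 28.6% were called higher and 28.1% lower. Since the members are well expressed, a closer background is given by the 12519 genes whose mean reached 50 normalized counts, of which 32.6% were called higher and 35.1% lower. With libraries scaled to equal totals, 62.0% of all called genes were higher, against 50.4% with the deposited scaling, and 24 of the 33 rose and 1 (ACADVL) fell; the 5 genes that gained a call were PHYH, HACL1, ACAD9, ACAA2 and HSD17B10. In limma without both the trend in the variance and robust estimation, ACADSB (adjusted p = 0.0916), ECHS1 (0.0552) and ETFB (0.0632) lost their calls. Of the peroxisomal genes 7 of 11 rose and none fell, and of the mitochondrial genes 10 of 19 rose and 3 fell. The count of peroxisomal falls was also 0 with edgeR and DESeq2, and 0 peroxisomal genes had a log2 fold change below 0 at an unadjusted p under 0.05. Of the genes of both compartments, CRAT and ECI2 rose and AMACR was not called. Since 16 of the 33 overlap another listed gene and no source used here gives the strand setting of the counting, the 17 without such a neighbour were also counted, a choice made after seeing the data. Of these 10 rose and 1 (CPT1A) fell; by compartment, 5 of 7 peroxisomal and 4 of 8 mitochondrial genes rose.

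The median log2 fold change was 0.40 over the 11 peroxisomal genes and 0.17 over the 19 mitochondrial genes, against 0.00 over all tested genes. Set against the mean of the control libraries, the median gene of the peroxisomal group stood at 0.37, 0.38 and 0.36 on the log2 scale in the siYAP libraries, and that of the mitochondrial group at 0.18, 0.12 and 0.13. For the genes of this list, the siYAP libraries thus gave the same order of the 2 compartments each time. The lists of other pathway genes described below did not keep that order. Their medians were 0.25 for other mitochondrial oxidation and ketone body genes, 0.04 for other peroxisomal lipid enzymes and carriers and 0.22 for other peroxisomal matrix enzymes. Because the list was drawn up with results of these libraries known, the gap between compartments is a description and was not tested. In 20 of the 33 genes every siYAP library lay above every siNT library and in 4 every siYAP library lay below, where 30.9% and 30.6% of all tested genes did so.

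**Figure D1:**
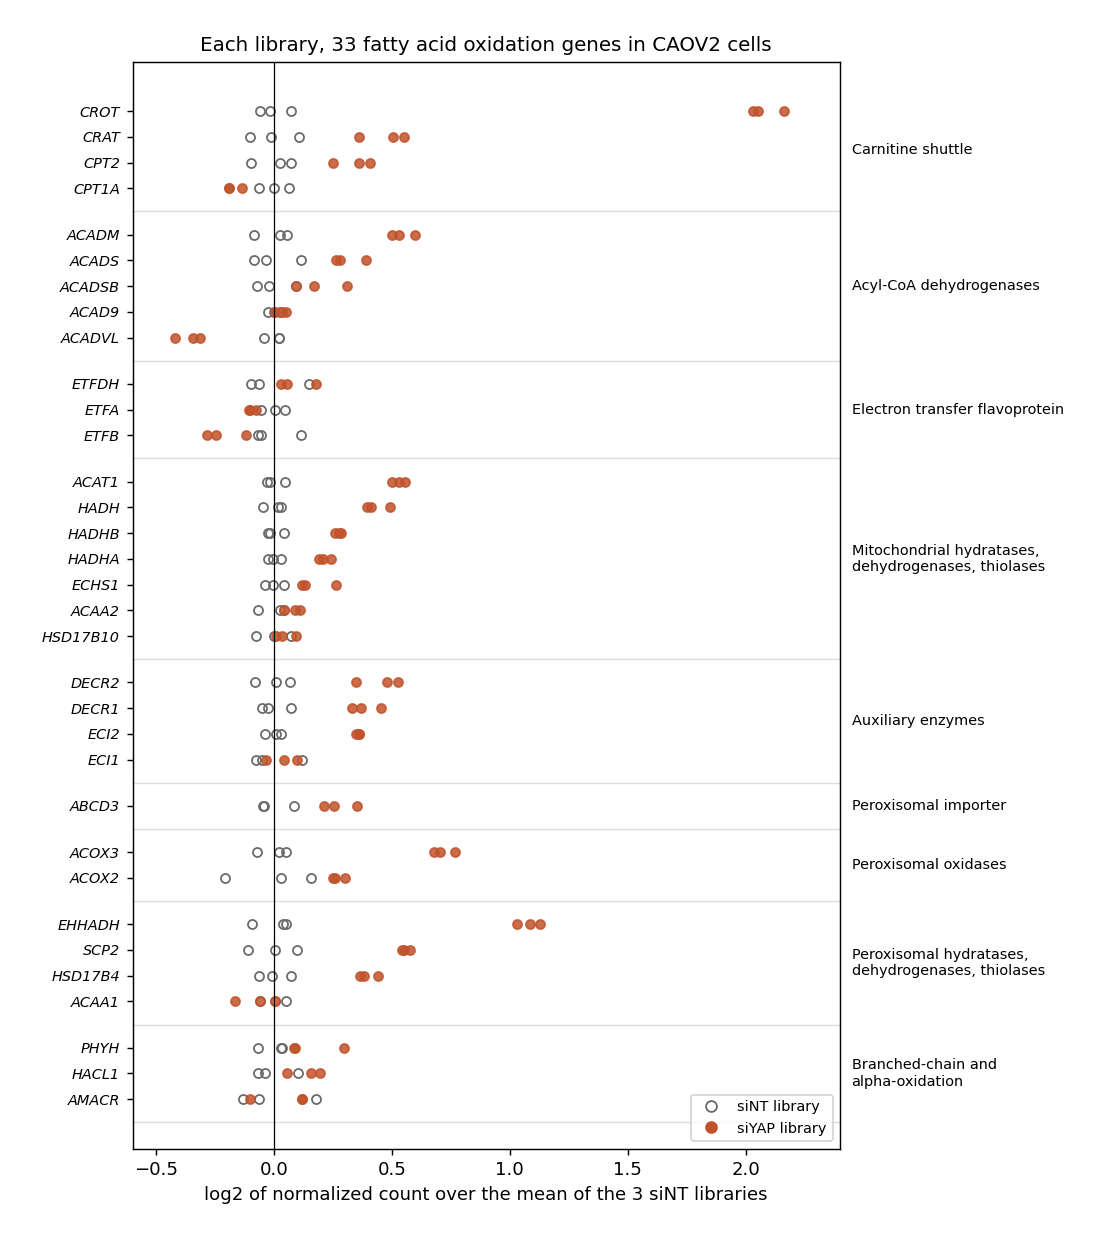
Each point is a library (open, siNT; filled, siYAP; 3 of each), placed on the x axis by the log2 of its normalized count over the mean of the 3 siNT libraries, with the 33 genes on the y axis grouped by role. CROT stands apart at the right with all siYAP libraries over 2 log2 units, and ACADVL lies farthest to the left.

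The carnitine shuttle held both the largest rise of the list and one of its 3 falls. CROT encodes carnitine octanoyltransferase, which turns medium-chain acyl-CoA made in peroxisomes into carnitine esters. Its normalized counts were 143, 139 and 152 in siNT and 600, 592 and 648 in siYAP. The groups did not overlap, and the mean went from 145 ± 6.77 to 613 ± 30.1 (SD, n = 3), a 4.23-fold difference (log2 2.07, standard error 0.0838, limma adjusted p = 6.69e-15). Among all 17200 tested genes, 243 had a larger log2 fold change.

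CROT (ENSG00000005469) lies on the plus strand of chromosome 7, at 87345681 to 87399795 in GENCODE 29 on GRCh38, and overlaps no other listed gene. The 250 bases before its RefSeq start (RefSeq promoter table, GRCh38.p14, chr7:87345414-87345663, plus strand) are shown because this gene moved most. Capitals mark a run of 13 bases that a search for repeated words found in 3 copies there, each 50 bases from the next.
CROT upstream: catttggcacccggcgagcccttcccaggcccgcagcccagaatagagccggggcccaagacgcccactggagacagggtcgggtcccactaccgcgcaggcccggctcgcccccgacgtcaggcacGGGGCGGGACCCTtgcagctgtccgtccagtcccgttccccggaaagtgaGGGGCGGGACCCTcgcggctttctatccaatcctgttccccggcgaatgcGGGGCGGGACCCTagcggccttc
Each copy holds the GC box letters GGGCGG. The 13-base run occurs at least once on either strand in 9 of 35116 promoter windows of 250 bases before and 50 after a start (0.0256%). It is there in 3 copies in 2 windows, those of CROT and of the divergent gene TP53TG1, which overlap and hold the same 3 copies. Because the run was picked from the CROT promoter for its 3 copies, these counts describe it and test nothing. TP53TG1 is a non-coding RNA gene on the minus strand whose RefSeq start, at 87345492, lies 172 bases from that of CROT. It was chosen for its position, after the values of CROT were known, and had 61.8, 57.7 and 41.1 normalized counts in siNT and 78.8, 81.9 and 68.5 in siYAP (log2 0.52, standard error 0.173, limma adjusted p = 0.0134). Both genes were thus higher in siYAP, and the call of TP53TG1 was lost with DESeq2 (adjusted p = 0.0513), in limma without trend and robust estimation (0.0503), without siNT replicate 3 (log2 0.35, limma adjusted p = 0.0922) or without siYAP replicate 2 (log2 0.47, limma adjusted p = 0.0565).

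CRAT, the acetyltransferase that moves acetyl groups onto carnitine, rose from 1545 ± 111 to 2146 ± 147 normalized counts (SD over 3 libraries; log2 0.47, standard error 0.0591, limma adjusted p = 4.69e-07). It overlaps PTPA on the other strand, which was more abundant, at 9916 normalized counts in siNT, and itself fell (log2 -0.19). Within libraries, CROT per kilobase of annotated exon stood at 0.076, 0.0639 and 0.0759 of CRAT in siNT and at 0.202, 0.207 and 0.25 in siYAP. The less abundant transferase transcript thus gained on the more abundant one, and the ranges did not meet.

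The mitochondrial entry enzymes went opposite ways. CPT1A, the outer membrane carnitine palmitoyltransferase that limits entry of long-chain fatty acids, had 7787, 8129 and 7445 normalized counts in siNT and 7080, 6829 and 6822 in siYAP. It fell by 11.3% (log2 -0.17, standard error 0.0436, limma adjusted p = 0.0019), and all siYAP libraries lay below all siNT libraries. CPT2, its inner membrane partner, rose from 758 ± 46 to 959 ± 53.5 normalized counts (SD over 3 libraries; log2 0.34, limma adjusted p = 9.22e-05). The ratio of CPT2 to CPT1A per kilobase was 0.057, 0.0615 and 0.0649 in siNT and 0.0863, 0.0923 and 0.0828 in siYAP, with no overlap. With libraries scaled to equal totals the fall of CPT1A was -0.08 and no longer called (limma adjusted p = 0.104).

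Acyl-CoA dehydrogenases, which carry out the initial oxidation in mitochondria, did not move alike. ACADVL acts on very long chains and was the most abundant transcript of the list in siNT. It had 19281, 20172 and 20137 normalized counts in siNT and 15666, 15987 and 14859 in siYAP, without overlap. The fall was 21.9% (log2 -0.36, standard error 0.0407, limma adjusted p = 1.26e-07), the deepest among the 33 genes. ACADVL lies at chromosome 17, 7217125 to 7225273 (plus strand, GENCODE 29) and overlaps DLG4 on the other strand, which also fell (484 ± 20.1 to 390 ± 17.9 normalized counts, SD, n = 3) but at a far lower count.

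ACADM, the medium-chain enzyme, moved the other way, with 2556, 2502 and 2315 normalized counts in siNT and 3480, 3551 and 3719 in siYAP. Its log2 fold change was 0.54 (standard error 0.0491, limma adjusted p = 3.55e-09), and the groups were well separated. Part of ACADM overlaps RABGGTB on the same strand, which rose by less (log2 0.22) and was more abundant, at 3605 normalized counts in siNT. The ratio of ACADM to ACADVL per kilobase went from 0.126 ± 0.00895 to 0.235 ± 0.0165 (SD, n = 3).

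Of the remaining dehydrogenases, ACADS, for short chains, rose by 24.3% (log2 0.31, limma adjusted p = 0.00032). ACADSB, which oxidises short branched chains such as those from isoleucine, rose slightly (log2 0.19, limma adjusted p = 0.0233), with 1 siNT and 1 siYAP library, both replicate 1, at 654 normalized counts. Its call was lost without siNT replicate 2 (limma adjusted p = 0.0945), siNT replicate 3 (0.0674) or siYAP replicate 3 (0.147). ACAD9, better known as an assembly factor of respiratory complex I, was at 1545 ± 27.2 and 1577 ± 25.5 normalized counts (SD, n = 3), and the 95% interval of its log2 fold change ran from -0.07 to 0.13.

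Electron transfer flavoprotein takes electrons from these dehydrogenases. None of its 3 genes was called higher, against 28.6% of all tested genes. ETFB, the beta subunit, had 1997, 2272 and 2019 normalized counts in siNT and 1928, 1768 and 1721 in siYAP and fell by 13.9% (log2 -0.21, standard error 0.0573, limma adjusted p = 0.0029). The lowest siNT and the highest siYAP library of ETFB were close, and with equal totals the fall was not called (limma adjusted p = 0.0641). ETFB overlaps another listed gene on each strand. ETFA, the alpha subunit, was at 7188 ± 252 and 6733 ± 73.7 normalized counts (SD over 3 libraries; log2 -0.09, limma adjusted p = 0.0632), with every siYAP library below every siNT library. ETFA was called without siNT replicate 3 (log2 -0.12, limma adjusted p = 0.0455). ETFDH, the ubiquinone oxidoreductase that receives the electrons, was at 569 ± 54.4 and 605 ± 33.8 normalized counts (SD over 3 libraries; 95% interval -0.06 to 0.24) and overlaps PPID on the other strand. PPID was more abundant than ETFDH, at 3679 normalized counts in siNT, and fell (log2 -0.38).

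In the later mitochondrial steps, 5 of 7 genes rose (71.4%) and none fell. Over all tested genes, 28.6% were called higher and 28.1% lower. HADHA and HADHB encode the subunits of the trifunctional protein, which completes the long-chain spiral at the inner membrane. HADHA had 16462, 16098 and 15837 normalized counts in siNT and 19095, 18432 and 18649 in siYAP, a rise of 16.1% (log2 0.22, standard error 0.0385, limma adjusted p = 5.49e-05). HADHB had 6550, 6237 and 6286 in siNT and 7734, 7688 and 7612 in siYAP, a rise of 20.8% (log2 0.27, standard error 0.0412, limma adjusted p = 6.7e-06). Each gene was separated between groups, and both moved the same way. The ratio of HADHB to HADHA per kilobase was 0.408, 0.397 and 0.407 in siNT and 0.415, 0.427 and 0.418 in siYAP, and an exact permutation test of 3 against 3 libraries could not have given a p below 0.1.

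The genes are arranged head to head on chromosome 2, HADHA on the minus strand and HADHB on the plus strand, with RefSeq starts at 26244632 and 26244939. Between the starts lie 306 bases, of which 194 belong to the promoter windows of both genes (chr2:26244689-26244882, GRCh38.p14, plus strand, from RefSeq). They are shown because the subunits moved together. Capitals mark the GC box letters GGGCGG, here on the opposite strand.
HADHA and HADHB shared: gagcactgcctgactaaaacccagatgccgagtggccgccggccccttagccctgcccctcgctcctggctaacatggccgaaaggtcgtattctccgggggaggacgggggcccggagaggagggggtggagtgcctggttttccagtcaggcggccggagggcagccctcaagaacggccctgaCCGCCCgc
In GENCODE 29 the genes also overlap, on opposite strands, so that some reads at the overlap could have been left out or assigned to either.

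ACAT1, the acetoacetyl-CoA thiolase of isoleucine and ketone body metabolism, had 3994, 3823 and 3787 normalized counts in siNT and 5580, 5470 and 5688 in siYAP. It rose by 44.2% without overlap (log2 0.53, standard error 0.0434, limma adjusted p = 7.71e-10). HADH, the short-chain hydroxyacyl-CoA dehydrogenase, rose from 859 ± 23.5 to 1160 ± 42.4 normalized counts (SD over 3 libraries; log2 0.43, limma adjusted p = 8.21e-07). ECHS1, the short-chain enoyl-CoA hydratase, rose by 12.7% (log2 0.17, limma adjusted p = 0.00379). Within this set ACAA2, a mitochondrial thiolase, was at 2726 ± 108 and 2881 ± 70.4 normalized counts (SD, n = 3), with a 95% interval of the log2 fold change from -0.02 to 0.18. HSD17B10, a dehydrogenase that also serves in mitochondrial tRNA processing, was at 3394 ± 178 and 3504 ± 110 (SD over 3 libraries; 95% interval -0.05 to 0.15).

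Auxiliary enzymes that prepare unsaturated chains rose in 3 of 4 cases (75%), against 28.6% called higher over all tested genes. The dienoyl-CoA reductase genes moved alike in both organelles: mitochondrial DECR1 went from 1031 ± 46.4 to 1347 ± 58.6 normalized counts (SD over 3 libraries; log2 0.38, limma adjusted p = 4.07e-06). Peroxisomal DECR2 went from 363 ± 18.1 to 497 ± 31.5 (SD over 3 libraries; log2 0.45, limma adjusted p = 2.85e-05). Both overlap a listed gene, DECR1 the gene NBN on the other strand (log2 0.28) and DECR2 the gene NME4 on the same strand (log2 0.08, not called). Each neighbour was more abundant than the gene it overlaps, NBN at 5331 and NME4 at 2950 normalized counts in siNT. Whether their reads entered the counts of DECR1 and DECR2 was not tested. The enoyl-CoA isomerase genes differed: ECI2 rose from 1089 ± 25.9 to 1393 ± 7.63 normalized counts (SD over 3 libraries; log2 0.36, limma adjusted p = 3.82e-06). ECI1, the isomerase confined by its usual location to mitochondria, was at 2416 ± 181 and 2477 ± 115 (SD, n = 3), with a 95% interval from -0.08 to 0.15.

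**Figure D2:**
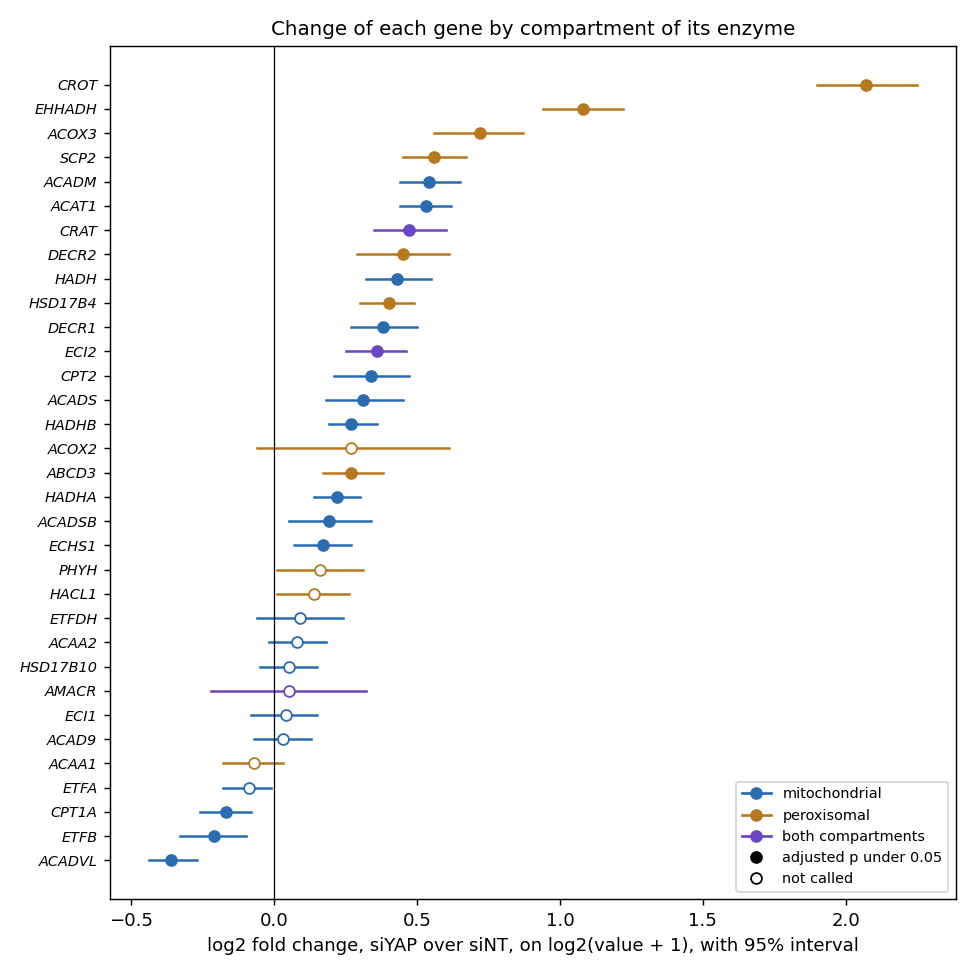
The x axis gives the log2 fold change of siYAP over siNT on the log2(value + 1) scale, with its 95% interval from limma, for each of the 33 genes on the y axis; colour gives the compartment and filled points passed an adjusted p of 0.05. The 4 largest rises are peroxisomal, and the 3 called falls, CPT1A, ETFB and ACADVL, are mitochondrial.

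On the peroxisomal side, the 4 largest rises of the whole list were CROT, EHHADH, ACOX3 and SCP2. EHHADH encodes the L-bifunctional enzyme, which joins hydratase and dehydrogenase activities and also serves in the oxidation of dicarboxylic acids. Its normalized counts were 360, 399 and 395 in siNT and 786, 841 and 816 in siYAP. The mean rose 2.12-fold, from 385 ± 21.3 to 814 ± 27.7 (SD over 3 libraries; log2 1.08, standard error 0.0683, limma adjusted p = 9.8e-12), and the lowest siYAP library was far above the highest siNT library. The gene lies at chromosome 3, 185190624 to 185281990 (minus strand, GENCODE 29), and overlaps no other listed gene.

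HSD17B4 encodes the D-bifunctional enzyme, which handles the same step for very long and branched chains. It rose by 31.7%, from 3864 ± 182 to 5088 ± 144 normalized counts (SD over 3 libraries; log2 0.40, standard error 0.0462, limma adjusted p = 1.72e-07). The ratio of EHHADH to HSD17B4 per kilobase was 0.201, 0.236 and 0.243 in siNT and 0.358, 0.379 and 0.353 in siYAP. HSD17B4 remained the more abundant transcript of the pair in all 6 libraries, while EHHADH gained on it without overlap between groups.

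The oxidase genes carry out the step that makes hydrogen peroxide. ACOX3, which oxidises branched chains such as pristanoyl-CoA, had 335, 328 and 308 normalized counts in siNT and 528, 551 and 518 in siYAP (log2 0.72, standard error 0.0736, limma adjusted p = 2.66e-08). It lies at chromosome 4, 8366282 to 8440723 (minus strand), and rose 1.64-fold without overlap. TRMT44, which overlaps ACOX3 on the other strand, was at 531 normalized counts in siNT and fell (log2 -0.37). ACOX2, the oxidase of bile acid intermediates, was the least abundant gene of the list per kilobase, at 54.5 ± 6.87 and 65.6 ± 1.26 normalized counts (SD, n = 3). Its log2 fold change of 0.27 was not called (limma adjusted p = 0.161, 95% interval -0.06 to 0.61).

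Of the peroxisomal thiolases, the gene for branched chains rose. SCP2, whose longer product is that thiolase for branched chains and whose shorter product is a sterol carrier protein, had 1942, 1820 and 1681 normalized counts in siNT and 2656, 2643 and 2708 in siYAP (log2 0.56, standard error 0.0526, limma adjusted p = 6.96e-09). Counts per gene do not separate these products. ACAA1, the straight-chain thiolase, was at 3260 ± 123 and 3100 ± 180 normalized counts (SD over 3 libraries; log2 -0.07, 95% interval -0.18 to 0.03). Thus the SCP2 groups were separated and those of ACAA1 overlapped. ABCD3, a membrane transporter that brings fatty acyl-CoA into peroxisomes, rose by 21.0% (log2 0.27, standard error 0.0497, limma adjusted p = 6.36e-05).

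Genes of alpha-oxidation and of racemisation, which make branched chains fit for beta-oxidation, were not called. PHYH, the phytanoyl-CoA hydroxylase, was at 522 ± 20.4 and 583 ± 49.5 normalized counts (SD over 3 libraries; log2 0.16, limma adjusted p = 0.0723), with every siYAP library above every siNT library. HACL1, the lyase that follows it, was at 976 ± 62.3 and 1073 ± 52.4 (SD over 3 libraries; log2 0.14, limma adjusted p = 0.058). Both lay near the threshold: with upper-quartile factors they were called (limma adjusted p = 0.0443 for PHYH and 0.0332 for HACL1), as they were with edgeR (adjusted p = 0.047 and 0.0418), and HACL1 was also called without siNT replicate 1 (limma adjusted p = 0.00742) or siYAP replicate 2 (0.0417). AMACR, the racemase, was at 115 ± 13.4 and 119 ± 10.8 normalized counts (SD over 3 libraries; 95% interval -0.22 to 0.32).

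**Figure D3:**
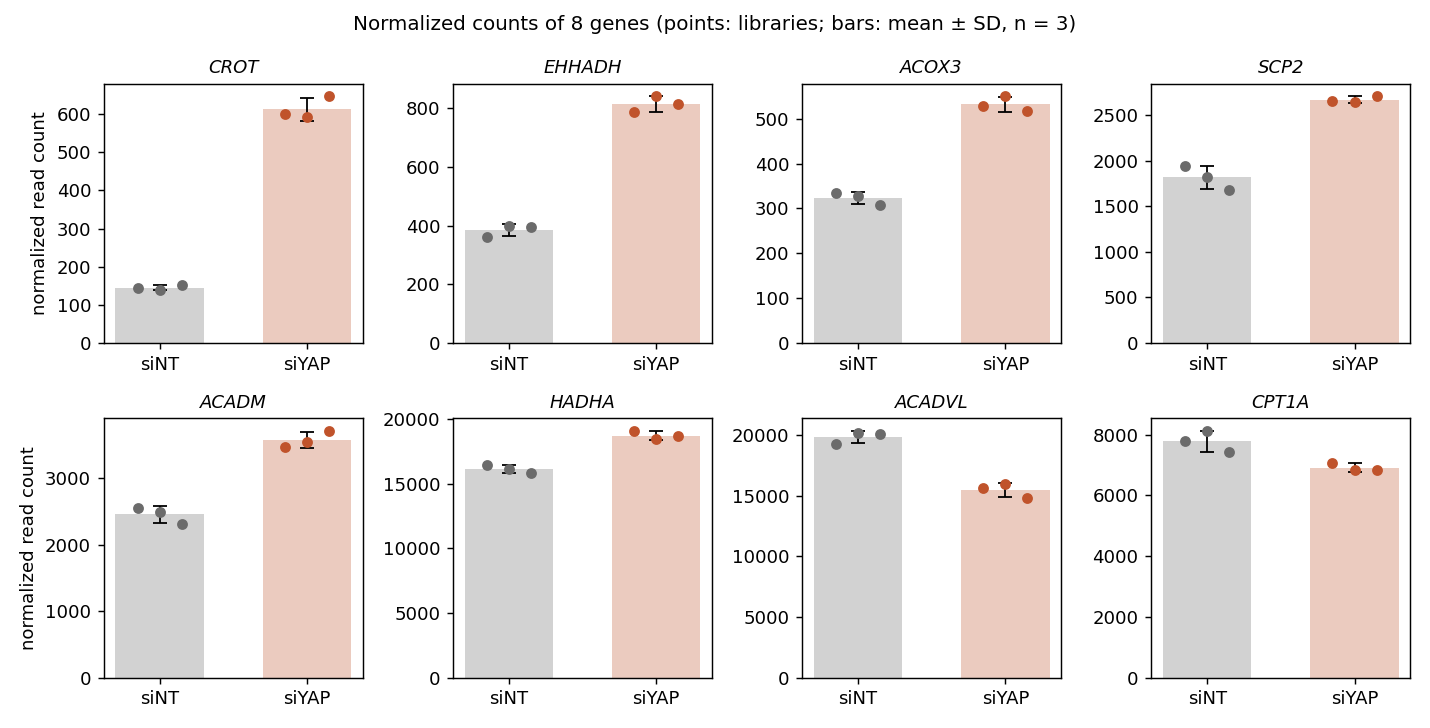
Normalized read counts (y axis, from 0) of 8 genes in siNT and siYAP; points are libraries, bars the mean and error bars the SD over 3 libraries. CROT goes from 145 to 613, while ACADVL fell by 21.9% and CPT1A fell by 11.3%.

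Per kilobase of annotated exon, which allows levels to be compared between genes, ACADVL led in siNT at 4083 ± 104 normalized counts per kilobase, followed by HADHA at 3679 ± 71.5, HSD17B10 at 3044 ± 159 and ECHS1 at 2829 ± 80.6 (SD, n = 3). In siYAP HADHA stood first at 4270 ± 77.2, and ECHS1 (3188 ± 182), ACADVL (3187 ± 120) and HSD17B10 (3143 ± 98.5) did not differ beyond their spread. CROT was the third lowest in siNT, at 29.1 ± 1.36, above AMACR (23.8 ± 2.77) and ACOX2 (14.1 ± 1.78). In siYAP it reached 123 ± 6.04, the same level as DECR2 at 123 ± 7.78. Lengths are the union of all annotated exons, which understates the level of genes with long rare exons.

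A total of 26 of the 33 genes had at least 1 entry in the RefSeq promoter table, 34 promoters in all, each of 250 bases before and 50 after a start. No entry was found for ETFDH, ACAA1, DECR1, DECR2, ACOX2, EHHADH and CRAT. The direct repeat bound by PPAR and RXR, AGGTCA in 2 copies with any 1 base between them, was searched on both strands and was in 0 of the 34 promoters and in 8 of all 35116 (0.0228%). Its single site AGGTCA was also in 0 of the 34, against 13.8% of all promoters, and the TEAD core letters GGAATG were in 1, that of HSD17B4, against 14%. GC box letters (GGGCGG) were in 26 of the 34 (76.5%), against 45.0% of all promoters, and CCAAT in 9 (26.5%), against 34.6%. Promoters of the same gene can share bases. The single site is contained in the direct repeat, so that these counts are not independent, and a match or its absence describes only these letters in this window.

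Other genes of the pathway were taken from 7 lists of the same biology. In all, 134 of their 153 symbols were in the table and 133 were tested, of which 64 were higher (48.1%), 30 lower (22.6%) and 39 not called. Over all tested genes 28.6% were called higher and 28.1% lower. Fatty acid uptake, activation and carnitine supply had 18 of 27 genes higher (66.7%) and 4 lower (14.8%), with a median log2 fold change of 0.32. BBOX1, the enzyme that completes carnitine synthesis, went from 5.24, 3.21 and 4.83 normalized counts in siNT to 105, 108 and 105 in siYAP. BBOX1, like ABCD2 and EPHX2 below, reached the mean of 50 normalized counts needed to be named only through the siYAP libraries, so that the choice of these 3 genes favoured rises. FABP1, the liver fatty acid binding protein, rose 4.89-fold and FABP3, the heart form, 2.33-fold, while FABP4, the adipocyte form, fell to 25.4% of its control level. SLC25A20, the carnitine-acylcarnitine carrier that links CPT1A to CPT2, rose by 14.5% (log2 0.19, limma adjusted p = 0.0292), a call that was lost when any of 3 libraries was left out (siNT replicate 1, 0.101; siYAP replicate 1, 0.0963; siYAP replicate 2, 0.107) and with the replicate block (0.056) or DESeq2 (0.0619).

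Among other mitochondrial oxidation and ketone body genes, 18 of 24 were higher (75%) and 2 lower (8.33%), with a median of 0.25. Over all tested genes 28.6% were called higher and 28.1% lower. OXCT1, which returns ketone bodies to acetyl-CoA, rose 1.62-fold, and the thioesterase gene ACOT13 and the dehydrogenase gene ACAD10 rose 1.51-fold and 1.46-fold. The groups of each of these 3 genes were fully separated.

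Of 21 other peroxisomal lipid enzymes and carriers, 8 were higher (38.1%) and 5 lower (23.8%), with a median of 0.04. These shares compare with 28.6% higher and 28.1% lower over all tested genes. ABCD2, a transporter of very long chains, rose from 30.9 ± 9.60 to 87.3 ± 14.1 normalized counts (SD, n = 3), and GNPAT, which starts ether lipid synthesis, and the CoA diphosphatase gene NUDT19 rose by 28.7% and 28.3%. SLC25A17, a peroxisomal carrier of cofactors, fell by 34.3%. Of 10 tested genes listed as peroxisomal matrix enzymes of other pathways, 7 rose (70%) and 3 were not called. Enzymes also found outside peroxisomes were not kept apart in this list. Those that rose included IDH1 (1.63-fold), IDE (1.77-fold), EPHX2 (3.18-fold) and MVK (1.32-fold). CAT, catalase, was at 2820 ± 93.6 and 2697 ± 121 normalized counts (SD over 3 libraries, limma adjusted p = 0.267).

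Of the genes that build peroxisomes, 3 of 16 were higher (18.8%), 5 lower (31.2%) and 8 not called (median -0.05). The share of falls was near the 28.1% called lower over all tested genes, of which 28.6% were called higher. PEX2, a membrane ubiquitin ligase subunit of the import machinery, had 1230, 1096 and 1124 normalized counts in siNT and 221, 226 and 223 in siYAP (log2 -2.36, limma adjusted p = 4.3e-17). PEX19, the receptor for new membrane proteins, fell to 56.7% and PEX6, an import ATPase, to 67.1% of control, while PEX13, a docking protein, rose by 27.4%. The groups of each of these 4 genes were fully separated.

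Of the regulators of oxidation, 6 of 21 were higher (28.6%, the same share as over all tested genes). A further 10 were lower (47.6%, against 28.1% over all tested genes), and the median was -0.03. PPARA had 207, 216 and 195 normalized counts in siNT and 468, 429 and 472 in siYAP (log2 1.14, limma adjusted p = 1.15e-10). HNF4A, a nuclear receptor of liver and gut, rose 1.9-fold, CREB3L3, a transcription factor of the fasted liver, 1.46-fold, and ACACB, which makes the malonyl-CoA that inhibits CPT1A, 1.61-fold. PPARGC1A, the co-activator best known for driving these genes, was at 173 ± 7.80 and 173 ± 6.58 normalized counts (SD over 3 libraries; 95% interval -0.22 to 0.21). Among the 10 that fell, named after their values were seen, were RXRA, the partner of PPAR receptors (log2 -0.48), NRF1 (log2 -0.55), ESRRA (log2 -0.38) and PPARG (log2 -0.29).

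**Figure D4:**
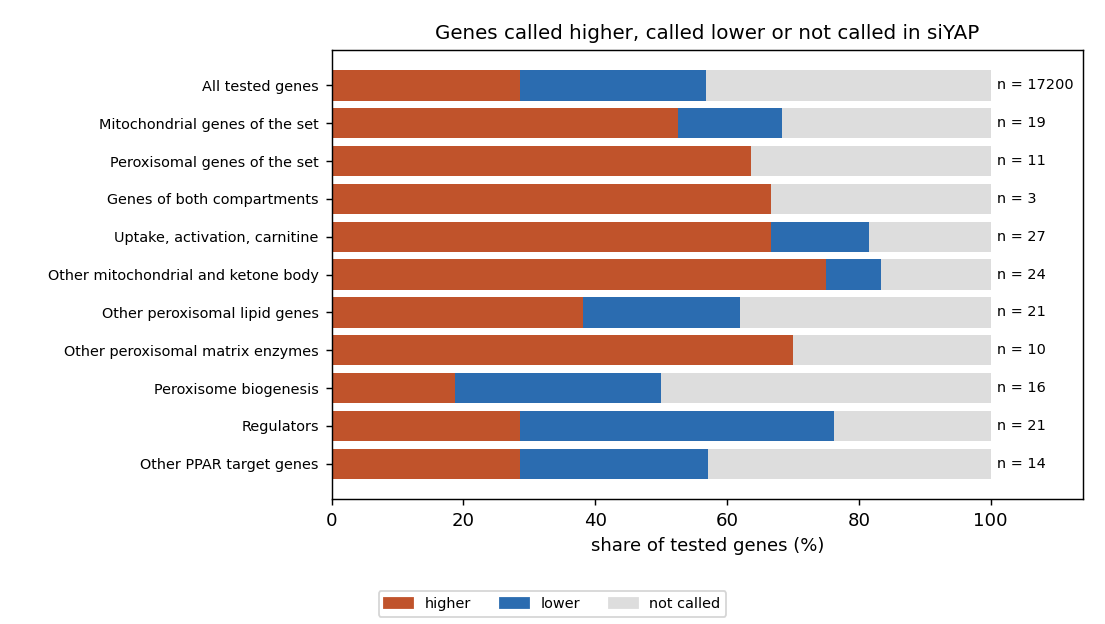
Bars give the share of tested genes (x axis, percent) called higher, called lower or not called in siYAP for all 17200 tested genes, the 3 compartment groups of the 33 genes and the 7 lists of other pathway genes. Peroxisome biogenesis (31.2% lower, near the 28.1% of all tested genes) and the regulators have more genes lower than higher. No lower gene is in the bars of the peroxisomal and both-compartment genes of the set or of the other peroxisomal matrix enzymes. The bar of other peroxisomal lipid genes has 5 of 21 lower.

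Markers of liver cells also differed between the groups. The 5 hepatocyte markers of 7 that were in the table were all called higher, against 28.6% of all tested genes. Their summed level was 3474 to 3869 normalized counts in siNT and 7129 to 7347 in siYAP, most of it HNF4A, which is also in the list of regulators. ALB was at 8.69 ± 4.68 and 66.1 ± 7.72 normalized counts, TTR at 8.32 ± 3.08 and 168 ± 4.20 (SD, n = 3), and APOB was listed at 0 in every siNT library and at 12.7, 20.7 and 12.4 in siYAP. APOB thus passed the filter on low values only through the siYAP libraries and could only rise, and ALB and TTR were low in siNT. Adipocyte markers summed to 1188 to 1231 in siNT and 623 to 671 in siYAP. Almost all of that sum was FABP4, which fell (log2 -1.98), and CIDEC, which rose (log2 1.81), while PLIN1 was not called. The fibroblast markers summed to 5605 to 6387 in siNT and 14282 to 14787 in siYAP. Most of the fibroblast sum was LUM (log2 1.37) and COL3A1 (log2 2.22), which rose with PDGFRA, whereas COL1A1 (log2 -0.21) and COL1A2 (log2 -2.60, from 12.6 to 1.25 normalized counts) fell. Their part in the changes of the oxidation genes was not tested. The epithelial markers were abundant in both groups and moved both ways. KRT8 was at 35206 ± 1349 and 33087 ± 1778 normalized counts (SD, n = 3) and was not called, KRT18 fell to 62.2% and KRT19 to 81.8% of control, and EPCAM (log2 0.74) and CDH1 (log2 0.93) rose. The ovarian markers PAX8 (28.8 ± 13.9 and 17.1 ± 4.26) and MUC16 (11.9 ± 3.67 and 14.2 ± 4.28) were low, and WT1 was not analysed here.

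The heptamer TTCTTAA, the heptamer GAGAGGA and the heptamer GATAAAG had been singled out in 3′ UTRs by an earlier look at these libraries. At least 1 of these 3 was in the searched 3′ UTR of 9 of the 33 genes (27.3%), against 35.8% of 13261 listed genes with a 3′ UTR. Of those 9, 5 rose (55.6%, namely SCP2, DECR1, DECR2, ACADSB and ECHS1), CPT1A fell, and PHYH, ACAA1 and AMACR were not called. The median log2 fold change was 0.17 over these 9 and 0.27 over the 24 genes without them, of which 14 rose (58.3%) and 2 fell. The shares that rose were thus close with and without a heptamer. Over all tested genes, 28.6% were called higher and 28.1% lower. These counts cover only the 33 genes. Some genes of the other pathway lists, named after their values were seen, also hold at least 1 of the heptamers. They include genes that fell (PEX2, PEX19 and SLC25A17) and genes that rose (PPARA, ABCD2 and IDE). The part of these sequences in the changes was not tested.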

How the data were processed

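RNA-seq read counts per gene were deposited for 6 libraries, divided by the authors by a size factor per library (a signal that is 1 read per fixed step). FastQC, HISAT2, HTSeq and DESeq2, and the builds hg19 and mm9, are named per the submitters' processing notes, without versions or the role of each build; no source used here gives the annotation, strand setting or gene filter. In each library 100% of values were whole multiples of the smallest step within 0.01 of a read, and the recovered reads, 25478595 to 31790340 per library, were used for edgeR 4.0.16 and DESeq2 1.42.0 as alternatives.

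Groups were taken from the labels. The 17200 genes that reached 1 in 3 or more libraries were fitted on log2(value + 1) with limma 3.58.1 (R 4.3.3, trend and robust), siYAP against siNT, and p-values were adjusted by Benjamini-Hochberg over all of them, with 0.05 as the threshold. The members and lists were chosen with earlier results of these data known. The text names every member, YAP1, some genes picked by name from the pathway lists (a few of these are not reported here), and the 4 called genes of each list with the smallest p among those with a mean of at least 50; neighbouring genes and markers were named besides. The epithelial markers summed to 74957 to 81441 in siNT and 61024 to 67217 in siYAP, the immune markers to 137 to 145 and 114 to 136, the muscle marker MB to 15.7 to 22.4 and 19.7 to 24.7, and no endothelial marker was in the table. Of the immune markers, CD14 rose (log2 0.45) while CD68 (log2 -0.65) and LYZ (log2 -1.59) fell.

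Names came from a table of gene identifiers and GENCODE 29 (16743 of 17211 matched), which also gave exon lengths, overlaps and GRCh38 coordinates; promoters came from RefSeq. Replicates correlated at 0.9924 to 0.9940 and differed beyond sampling noise. Same-numbered libraries of the groups did not deviate together (correlations -0.053, -0.006 and 0.001), so the numbers were not taken as pairs. On simulated counts limma called 17 of 50 genes set to differ 1.2-fold, 42 of 50 at 1.5-fold, 47 of 50 at 2-fold and all 50 at 3-fold. No other genes were made to differ there, and the spread was set rather than estimated from these libraries. In these data 28.6% of tested genes were called higher and 28.1% lower, so the simulated shares need not hold for this fit. Alternatives were the pseudocount (0.1), the filter, TMM, upper-quartile and equal-total scaling, limma without trend, edgeR, DESeq2, a replicate block and leaving out each library.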

Additional observations from a re-analysis of the deposited data

How the results depend on the processing

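Over 16 alternatives, 508 of 528 values for single genes of the list kept their side of the threshold, 8 lost a call and 12 gained a call. ACAA1 (-0.07, and 0.01 with equal totals) and AMACR (0.05, and -0.01 without siNT replicate 3), neither of them called, changed sign; the other genes of the list did not. With equal totals the calls lower dropped from 3 to 1 (mitochondrial also 1), and the medians were 0.36 for all 33 genes, 0.26 for the mitochondrial and 0.48 for the peroxisomal genes; this scaling raised the median of all tested genes by 0.086 and gave 6050 genes higher and 3701 lower. Among the genes that overlap no listed gene, chosen after seeing the data and fewer by construction, 10 were higher and 1 lower, 4 and 1 of them mitochondrial, and the mitochondrial median was 0.13. Leaving out each library in turn gave 18 to 20 genes higher and 3 to 4 lower, and medians from 0.20 to 0.27 for all, 0.12 to 0.20 for the mitochondrial and 0.37 to 0.43 for the peroxisomal genes. In these fits pathway-list genes numbered 54 to 61 higher and 25 to 30 lower. Where a library left a group with 2, the spread was estimated from the remaining 5. The cause of the other shifts was not tested.

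With a replicate block, which uses numbers that do not pair the libraries, 19 genes of the list were higher and 3 lower, with medians of 0.27, 0.17 and 0.40, and pathway-list genes came to 58 higher and 26 lower, and all genes to 4654 and 4487. Depth limits low genes most: ACOX2, at 47.1 to 67.1 normalized counts, has a standard error of 0.162 on the log2 scale, against 0.0385 for HADHA.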

Other observations

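Genes of lipid droplets and other PPAR targets outside beta-oxidation had 4 of 14 higher (28.6%), 4 lower (28.6%) and 6 not called (median log2 fold change -0.13), near the 28.6% and 28.1% of all tested genes. PLIN2, the coat protein found on lipid droplets of most cells, had 5628, 5524 and 5854 normalized counts in siNT and 2588, 2508 and 2582 in siYAP (log2 -1.15, limma adjusted p = 3.13e-15). ANGPTL4, which is secreted and blocks lipoprotein lipase, fell to 44.4% of its control level, with 1422, 1546 and 1579 in siNT and 673, 669 and 676 in siYAP. CIDEC, which helps droplets fuse, rose from 106 ± 21.6 to 367 ± 8.91 and PLIN4 from 30.9 ± 1.03 to 93.8 ± 6.12 normalized counts (SD, n = 3), while PLIN1, the main coat protein of fat cell droplets, was at 3.29 ± 1.79 and 3.20 ± 2.52. PLIN4 reached the mean of 50 needed to be named only through the siYAP libraries, and PLIN1 was named after its values were seen. PDK4, the kinase that restrains pyruvate oxidation, was at 289 ± 36.2 and 260 ± 25.9 (SD, n = 3; limma adjusted p = 0.216), with overlapping groups.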
